A study of Mus musculus with 8 samples.

Results

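The genes described here encode the constitutive proteasome of mouse pancreatic islets. They were chosen by name, as the symbols that start with Psma, Psmb, Psmc or Psmd and end in a number. Psmb8, Psmb9 and Psmb10, which encode the inducible subunits of the immunoproteasome, were left out. Earlier results of these data were known when these genes were chosen. The choice gave 36 of the 35596 genes in the table. Of these, 16 encode subunits of the core particle, 17 encode subunits of the regulatory particle, and 3 (Psmd5, Psmd9 and Psmd10) encode chaperones that help to assemble the regulatory base and leave it afterwards.

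The proteasome is the main protease of the cytosol and nucleus. Its core particle is a barrel of stacked rings, with closed outer rings of alpha subunits and inner rings of beta subunits, some of which carry the proteolytic sites facing the chamber. The regulatory particle caps the barrel: its base holds a ring of ATPases that unfold substrates and feed them in, and its lid removes the ubiquitin chain that marks them. Beta cells make very large amounts of proinsulin, and misfolded proinsulin is among the substrates that are drawn out of the endoplasmic reticulum and degraded by proteasomes.

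Poly-A RNA was sequenced from islets of male C57BL/6J mice, with 4 libraries from obese and 4 from weight-cycled animals. Obese mice ate a diet with 10% fat for 9 weeks and then one with 60% fat for 18 weeks. Weight-cycled mice ate the 60% fat diet for 9 weeks, the 10% fat diet for 9 weeks and the 60% fat diet again for 9 weeks. Both groups had thus spent 18 weeks on the 60% fat diet and were on it at collection, but for 18 unbroken weeks in the obese group and 9 in the weight-cycled group, so that cycling cannot be told apart from the length of the last exposure. The labels give no age and leave unsaid whether a library holds islets of 1 mouse or of several, so p-values measure the spread between libraries, which may be technical. Collagenase was used to free the islets, which were then hand-picked, and the values are TPM, abundances per transcript length that add up to the same total in every library. They keep no sequencing depth, so that no counting error can be given.

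The libraries did not all follow their labels in their general pattern. On the first principal component of all tested genes (66.8% of the variance), the obese libraries lay between -23.3 and -5.03, weight-cycled replicate 1 at -7.98 among them, and the other 3 weight-cycled libraries between 13.8 and 30.6. The same 3 libraries had relatively lower values for long transcripts (Spearman correlation of a gene's deviation with transcript length -0.400 to -0.283) while the obese libraries and weight-cycled replicate 1 had relatively higher ones (0.184 to 0.375). Genes that mark beta cells were abundant in every library, taking 78.5% to 81.3% of TPM. Past the threshold given below, 6 of these 9 genes fell in weight-cycled islets and none rose, where 23.9% of all tested genes were called lower and 1.21% higher. Their median fold change was -0.61 on the log2(TPM + 1) scale (-0.30 after median-of-ratios scaling). Of 6 alpha cell markers, 2 rose and 0 fell past the threshold, with a median fold change of -0.23 (-0.08 after median-of-ratios scaling). Their summed share of TPM was 0.457% to 1.23% in obese and 0.312% to 0.853% in weight-cycled libraries. Acinar enzyme genes took 0.304% to 0.561% in obese libraries, 0.904% in weight-cycled replicate 1 and 0.392% to 0.442% in the other weight-cycled libraries, and 0 of 14 passed the test. Summed macrophage markers were lower in weight-cycled libraries (41.5 to 51.8 TPM, against 53.8 to 67.6), and summed endothelial markers ranged lower with overlap (28.3 to 58.6 against 51.2 to 84.0). Past the threshold, 3 of 5 tested macrophage markers and 2 of 7 endothelial markers fell, and none of either list rose. Of the 9 macrophage markers, Adgre1, Cd68, Csf1r and Itgam were under 1 TPM, and no marker of any list was at 0 in all libraries. The part of these differences in the results was not tested. In whole islets, fewer cells of a type and less RNA per cell cannot be told apart.

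Proteasome transcripts were measured in all 8 libraries for 34 of the 36 genes, those with a mean of at least 1 TPM. The exceptions were Psma8, an alpha subunit known from testis, with at most 0.0586 TPM, and Psmb11, a beta subunit known from the thymus, listed at 0 in every library. Together the 36 genes took 0.0898% to 0.0959% of TPM in obese libraries. In the weight-cycled libraries they took 0.0829% in replicate 1, 0.0890% in replicate 2, 0.0925% in replicate 3 and 0.112% in replicate 4. The lowest and the highest of the 8 libraries were thus both weight-cycled.

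Because TPM are scaled by transcript length, levels can be compared between genes. The 14 core members had mean levels over all libraries from 16.4 TPM (Psma2) to 84.0 TPM (Psmb4), with a median of 39.6. The 17 regulatory members ranged from 4.97 TPM (Psmd11) to 28.03 TPM (Psmd6), with a median of 17.4, and 9 core members lay above the highest of them. The 3 assembly chaperones were the lowest group by median, with 2.63 TPM for Psmd9, 2.86 TPM for Psmd5 and 7.85 TPM for Psmd10.

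Fold changes below are differences of log2(TPM + 1), weight-cycled minus obese, which understate changes of low genes, and a gene is called past the threshold at an adjusted p under 0.05 (limma, Benjamini-Hochberg over all 8127 tested genes). No core member passed. Psmd1, Psmc5 and Psmd3, all of the regulatory particle, fell in weight-cycled islets, and the other 31 tested members did not pass in either direction. These 3 are 8.82% of the tested members and 17.6% of the regulatory members, where 23.9% of all tested genes were called lower and 1.21% higher. At an unadjusted p under 0.05, 8 members were lower and 1 was higher, against 46.5% and 2.63% of all tested genes.

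The 2 particles differed in where their members lay. The median of all tested genes was -0.26, with 85.5% of genes below 0, so that a gene at 0 lies well above the middle of the table. All 14 core members lay above that median, 9 of them above 0 and 5 below, and their own median was 0.05. Of the 17 regulatory members, 10 lay above the median of all genes and 7 below it, 15 were below 0, and their median was -0.24. The core median thus stood 0.31 above that of all genes and the regulatory median 0.02 above it, and the medians of the particles were 0.29 apart. The direction of both groups against 0 depends on the scaling. After median-of-ratios scaling, which brings the median of all genes to -0.01, the core median was 0.37 with 14 of 14 members above 0, the regulatory median was 0.07 with 13 of 17 above 0, and no member passed, with 0.566% of all genes called lower and 1.24% higher. After quantile scaling the medians were 0.17 and 0.004, and again no member passed (1.53% of all genes lower, 2.13% higher). After removing the dependence on transcript length within each library they were 0.20 and -0.02, with 12 of 14 core and 7 of 17 regulatory members above 0 and none past the threshold (1.51% of all genes lower, 1.75% higher). The core median stayed above the regulatory median in 29 of 29 alternative settings, 0.17 to 0.43 apart. These settings draw on the same 8 libraries and are not independent of each other. The replicate block and robust variance leave the fold changes as they were. A scaling factor common to all genes has little effect on a difference between particles, so the tally is no measure of certainty. These are descriptions of the members, and the difference between the particles was not tested.

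**Figure D1:**
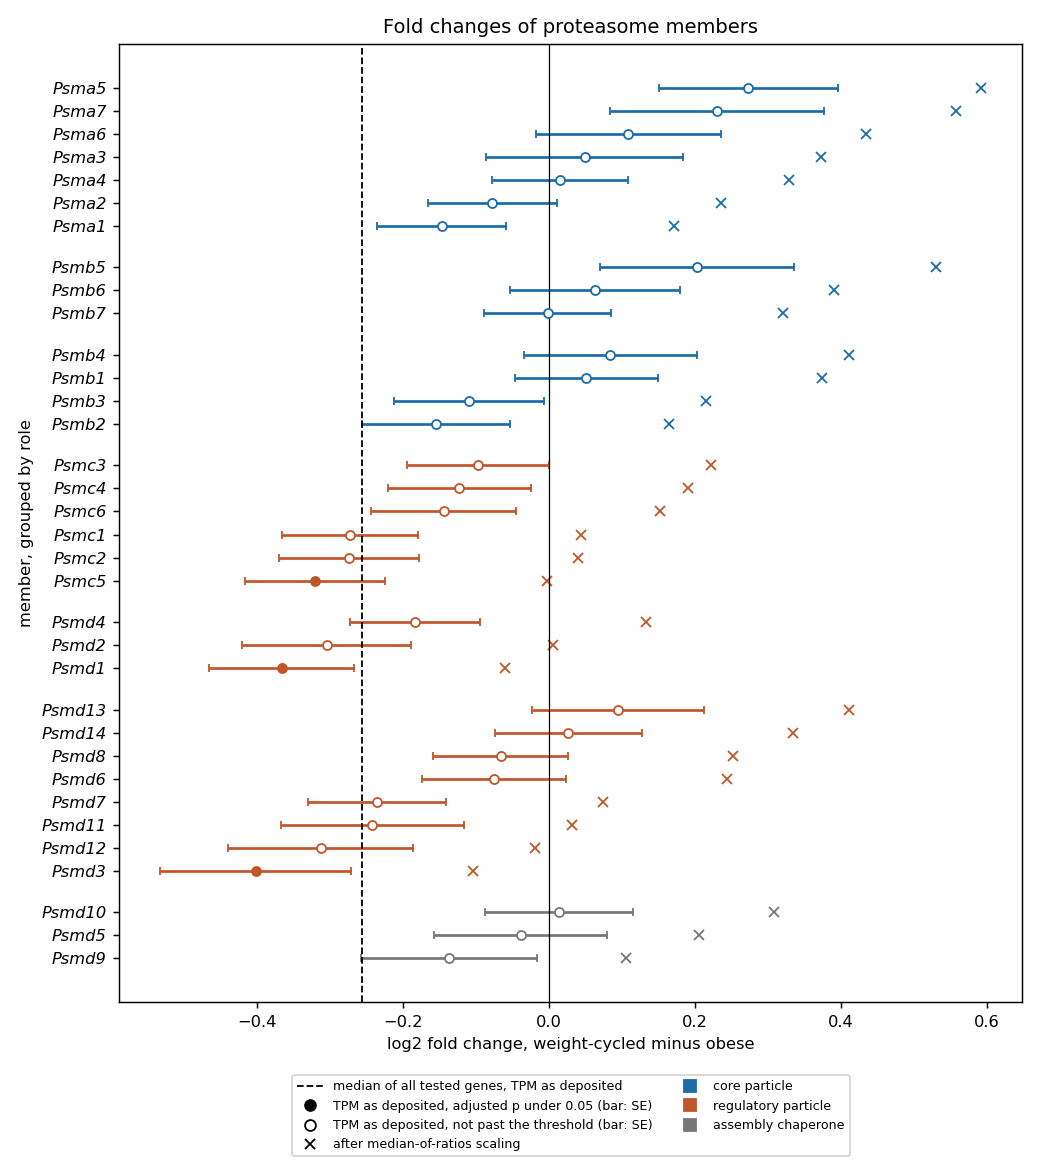
Fold changes of the 34 tested members, weight-cycled minus obese on the log2(TPM + 1) scale, grouped by role. Circles with bars give the value and its SE from TPM as deposited (filled where the adjusted p was under 0.05), crosses give the value after median-of-ratios scaling, and the dashed line marks the median of all tested genes at -0.26. All core members (blue) lie to the right of the dashed line, and the 3 filled circles are Psmc5, Psmd1 and Psmd3.

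The same pattern can be read library by library. The mean log2(TPM + 1) over the 14 core members was 5.31, 5.36, 5.36 and 5.28 in obese replicates 1 to 4 (mean 5.33 ± 0.0392, SD, n = 4). It was 5.15, 5.31, 5.37 and 5.64 in weight-cycled replicates 1 to 4 (5.37 ± 0.202). The obese libraries lay close together, whereas the weight-cycled libraries held both extremes and surrounded them. Over the 17 regulatory members the obese means were 4.20, 4.18, 4.08 and 4.02 (4.12 ± 0.0857) and the weight-cycled means 3.99, 3.82, 3.90 and 3.996 (3.93 ± 0.0829). Here the groups did not overlap, although obese replicate 4 and weight-cycled replicate 4 were nearly equal. That separation did not hold after median-of-ratios scaling or the length correction, the other settings in which these means were taken. After median-of-ratios scaling the regulatory means overlapped with the direction turned, at 3.96 ± 0.0277 in obese and 4.08 ± 0.133 in weight-cycled libraries, and after the length correction they overlapped at 4.021 ± 0.00335 and 4.025 ± 0.0707.

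The difference between these means set the particles against each other within a library, where a scaling factor common to all genes has little effect. It was 1.11, 1.17, 1.29 and 1.26 in the obese libraries (1.21 ± 0.0793) and 1.17, 1.495, 1.47 and 1.64 in the weight-cycled ones (1.44 ± 0.200). Weight-cycled replicate 1 lay inside the obese range and the other 3 weight-cycled libraries above it. After the length correction the values were 1.15, 1.20, 1.29 and 1.27 against 1.18, 1.46, 1.46 and 1.597, in the same arrangement. In TPM, the average core member was 2.30 to 2.63 times the average regulatory member in obese libraries. That ratio was 2.44 in weight-cycled replicate 1, 3.07 in replicate 2, 3.01 in replicate 3 and 3.42 in replicate 4.

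**Figure D2:**
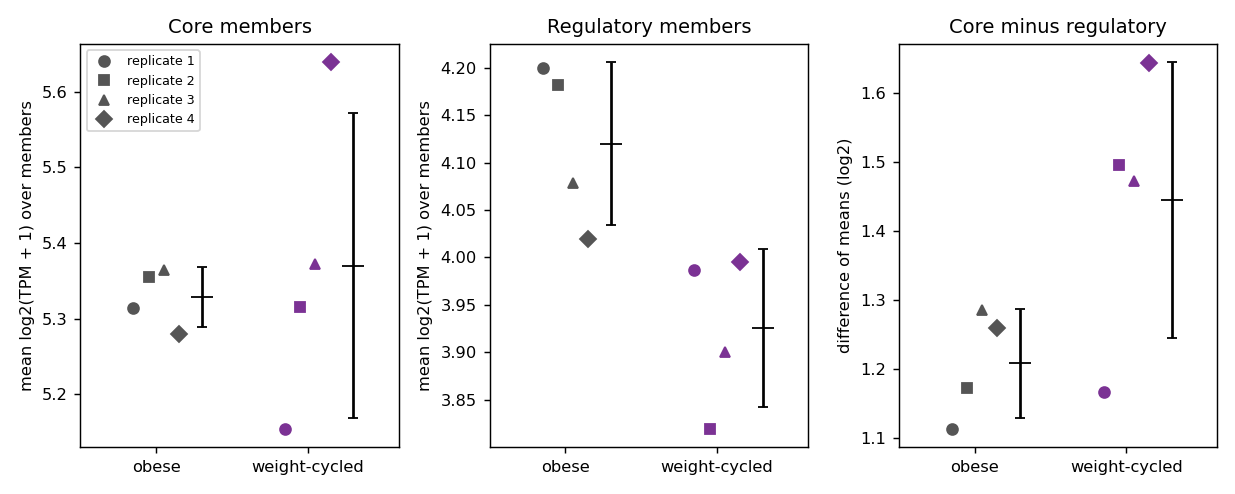
Mean log2(TPM + 1) over the 14 core members (left), over the 17 regulatory members (middle) and their difference (right) in each library, with the group mean and SD (n = 4) as black bars. The vertical axes do not start at 0 and differ in range. Weight-cycled replicate 4 is the highest library for the core at 5.64 and weight-cycled replicate 1 the lowest at 5.15, and replicate 1 alone of the weight-cycled libraries lies within the obese range of the difference.

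The extremes were shared out unevenly among the libraries. Weight-cycled replicate 4 was the highest of the 8 libraries for 12 of 14 core members, where it was highest for 11.5% of all tested genes. After median-of-ratios scaling it was the highest for all 14, against 23.8% of all genes. Weight-cycled replicate 1 was the lowest for 11 of 14 core members, against 7.05% of all genes. Among regulatory members obese replicate 1 was the highest for 10 of 17, against 41.0% of all genes, and weight-cycled replicate 2 the lowest for 9, against 50.3%. After median-of-ratios scaling weight-cycled replicate 4 was the highest for 11 of 17 regulatory members too, against the same 23.8% of all genes. Without weight-cycled replicate 4 the core median was -0.05 and 11 of 14 core members were below 0. Without weight-cycled replicate 1 it was 0.13, and then 3 core members (Psma5, Psma7 and Psmb5) passed as higher and 9 regulatory members (Psmc1, Psmc2, Psmc5, Psmd1, Psmd2, Psmd3, Psmd7, Psmd11 and Psmd12) as lower, with 3.32% and 54.6% of all genes called in those directions. Median-of-ratios scaling together with that omission gave 19 members called higher, 13 of the core, 5 of the regulatory particle and Psmd10, and none lower, with 19.9% of all genes called higher and 17.9% lower. The length correction with the same omission gave 13 higher, 9 of them core, and none lower, with 12.7% of all genes called higher and 13.4% lower.

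**Figure D3:**
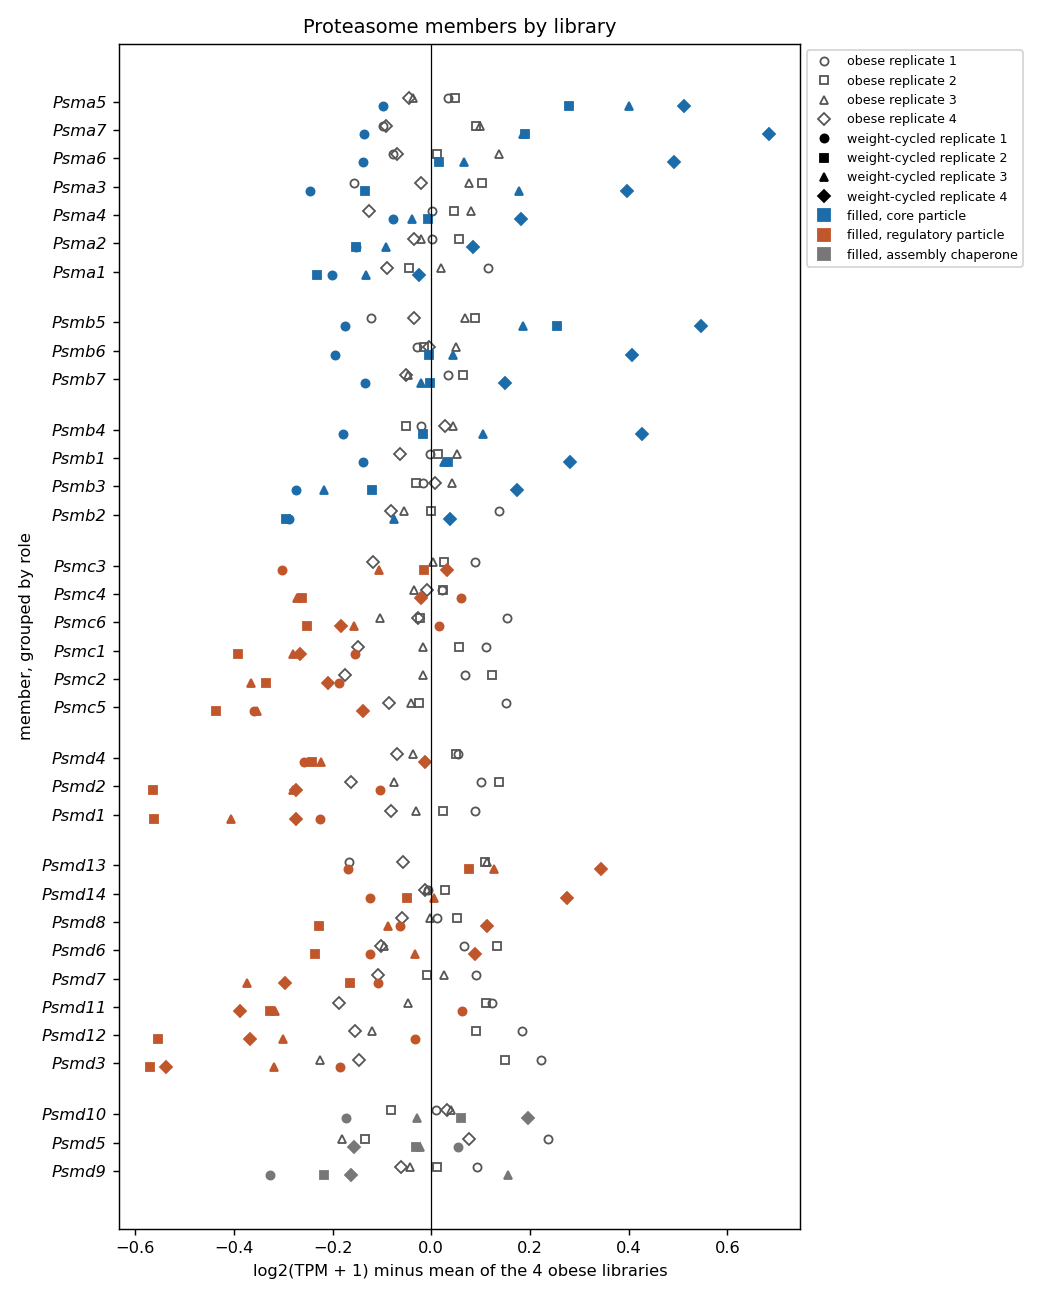
Value of each tested member in each library, as log2(TPM + 1) minus the mean of the 4 obese libraries, grouped by role. Open symbols are obese and filled symbols weight-cycled libraries, coloured by particle, with 1 shape per replicate number. Filled diamonds (weight-cycled replicate 4) lie farthest right for 12 of 14 core members, and filled circles (weight-cycled replicate 1) farthest left for 11.

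Sequence just before the gene start is shown for the members at the ends of the fold-change range, since those genes lie farthest apart in the comparison. The 2 highest (Psma5 and Psma7) and the 2 lowest (Psmd12 and Psmc5) were taken among members whose 120 bases before the annotated gene start fall within a promoter window of RefSeq (250 bases before to 50 after a start, build GRCm38.p6). Each run reads 5′ to 3′ on the strand of its gene, and capitals mark the GC box, GGGCGG on either strand.
Psma5: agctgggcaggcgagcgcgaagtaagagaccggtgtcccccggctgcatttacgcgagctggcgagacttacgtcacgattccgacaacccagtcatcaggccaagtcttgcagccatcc
Psma7: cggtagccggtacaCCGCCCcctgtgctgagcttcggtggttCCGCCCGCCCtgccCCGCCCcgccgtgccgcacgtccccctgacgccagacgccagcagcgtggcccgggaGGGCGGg
Psmd12: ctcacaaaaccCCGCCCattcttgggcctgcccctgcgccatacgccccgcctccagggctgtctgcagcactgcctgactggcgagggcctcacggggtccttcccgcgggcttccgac
Psmc5: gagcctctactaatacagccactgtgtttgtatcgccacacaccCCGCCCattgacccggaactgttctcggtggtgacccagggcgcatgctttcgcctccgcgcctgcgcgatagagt
The Psma5 run lies at chr3:108256806-108256925, plus strand. The Psma7 run lies at chr2:180042434-180042553, minus strand. The Psmd12 run lies at chr11:107479364-107479483, plus strand. The Psmc5 run lies at chr11:106256034-106256153, plus strand. The GC box was found in the runs of Psma7, Psmd12 and Psmc5 and not in that of Psma5. The CCAAT box, the TATA box and the cores of ETS and antioxidant response sites, spelled out with their counts over all members, were also searched and were in none of these 4 runs.

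RefSeq windows matched 29 of the 36 members, 12 of the core, 14 of the regulatory particle and the 3 chaperones. In these windows 14 patterns were searched on both strands, and the share of all 27025 genes with a window that hold the pattern is given as background. A match is a description of the letters and not a site of binding. GGGCGG was in 18 members (62.1%, against 38.2% of genes), namely 5 of 12 core, 10 of 14 regulatory and 3 of 3 chaperone genes. CCAAT was in 12 (41.4% against 41.1%), and TATAAA in 3 (10.3% against 15.7%). CCGGAAG, the core of sites for ETS family factors, was in 10 (34.5% against 9.93%), which were 9 of 14 regulatory genes and 1 of 12 core genes, Psma6. It was singled out after the matches were seen. The longer ACTTCCGG, which always contains the complement of CCGGAAG, was in 6 (20.7% against 4.31%), and GCGC followed by a second GCGC 2 bases on, the palindrome of nuclear respiratory factor 1, in 6 (20.7% against 7%). CACGTG was in 2 members (6.9% against 8.09%), AAGATGGCG in 2 (6.9% against 1.64%) and the palindrome that starts with TCTCG in 1 (3.45% against 0.525%). The heat shock element (GAA, TTC and GAA, each 2 bases apart), TGACGTCA, TGACGTGG and the endoplasmic reticulum stress element (CCAAT and CCACG, 9 bases apart) were in none, with 0.662%, 2.03%, 0.714% and 0.137% of genes. CCGGAAG was in 13 stretches whose flanks also fell within a window, 3 of them in Psma6 and 2 in Psmc2 (at separate annotated starts). The stretch nearest to a start is shown for each of the 10 genes, because these genes divide the particles unevenly, as 29 bases on the strand that carries the pattern, which is in capitals.
Psma6 (chr12:55398812-55398840, plus strand): ccgccggtgctCCGGAAGcagtagccata
Psmc1 (chr12:100110163-100110191, minus strand): aatcgccaccgCCGGAAGtgcatccacca
Psmc2 (chr5:21786712-21786740, minus strand): tctcttccccaCCGGAAGtagctccgcgc
Psmc6 (chr14:45329713-45329741, plus strand): aggcgggccagCCGGAAGgggcggagcca
Psmd11 (chr11:80428593-80428621, minus strand): gaaacacacacCCGGAAGacccgccctcg
Psmd12 (chr11:107479500-107479528, minus strand): cgtcactcgcaCCGGAAGtcgcccgctca
Psmd13 (chr7:140882377-140882405, plus strand): cgcccgcggtgCCGGAAGtgagcgagcac
Psmd2 (chr16:20651615-20651643, minus strand): tgtcctccagaCCGGAAGcgccctgcgga
Psmd4 (chr3:95042722-95042750, minus strand): ttacagctgttCCGGAAGctgctgcgaag
Psmd6 (chr14:14120973-14121001, minus strand): cagagacgcgaCCGGAAGtcagactggcg

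TGACNNNGC is the core of the antioxidant response element, the kind of site through which Nfe2l1 is known to raise proteasome genes when proteasomes are inhibited. It was in 5 members (17.2%, against 14% of genes), 2 of 12 core, 2 of 14 regulatory and 1 of 3 chaperone genes. They are Psmb5, Psmb6, Psmc6, Psmd9 and Psmd12. The first 4 are shown with the pattern in capitals, and the Psmd12 match lies too near the end of its window to be printed with its flanks.
Psmb5 (chr14:54618024-54618052, minus strand): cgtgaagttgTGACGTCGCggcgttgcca
Psmb6 (chr11:70525338-70525366, plus strand): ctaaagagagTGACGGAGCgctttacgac
Psmc6 (chr14:45329587-45329615, minus strand): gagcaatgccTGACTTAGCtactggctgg
Psmd9 (chr5:123228149-123228177, plus strand): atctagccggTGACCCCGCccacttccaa
Of these 5 genes none passed the test. Psmb5 and Psmb6 had fold changes of 0.20 and 0.06, and Psmc6, Psmd9 and Psmd12 had -0.14, -0.14 and -0.31.

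The alpha ring forms the gate of the barrel and the surface on which the regulatory particle docks. Its 7 tested genes spanned -0.15 to 0.27 with a median of 0.05, and none passed. Psma5 (ENSMUSG00000068749.9, chr3:108256926-108279974, GRCm38), the highest of all members, had 23.5, 23.8, 22.4 and 22.2 TPM in obese replicates 1 to 4 and 21.4, 28.1, 30.6 and 33.2 TPM in weight-cycled replicates 1 to 4. Weight-cycled replicates 2, 3 and 4 lay above all obese libraries and replicate 1 below all of them. The means were 23.0 ± 0.789 and 28.3 ± 5.07 TPM (SD, n = 4), a fold change of 0.27 (SE 0.122, limma adjusted p = 0.0960). It was above 0 in every alternative, from 0.19 to 0.79, and passed in 4 of 29.

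Psma7, the next highest, had 68.2, 77.8, 78.2 and 68.4 TPM in obese and 66.3, 83.4, 83.1 and 118 TPM in weight-cycled libraries. Weight-cycled replicate 4 stood far above the rest and replicate 1 below all obese libraries. Its fold change was 0.23 (SE 0.147, limma adjusted p = 0.215). At the other end, Psma1 had 29.3, 26.1, 27.3 and 25.2 TPM in obese and 23.3, 22.8, 24.5 and 26.5 TPM in weight-cycled libraries. Its groups overlapped only through weight-cycled replicate 4, and its fold change was -0.15 (SE 0.0883, limma adjusted p = 0.189), which became 0.17 after median-of-ratios scaling. The remaining alpha subunits lay close to 0, with 0.11 for Psma6, 0.05 for Psma3, 0.01 for Psma4 and -0.08 for Psma2.

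Of the beta subunits, Psmb5, Psmb6 and Psmb7 carry the active sites. Psmb5 (ENSMUSG00000022193.7, chr14:54614119-54618022), with the chymotrypsin-like site that the drug bortezomib binds, had 57.9, 67.1, 66.2 and 61.5 TPM in obese and 55.7, 75.4, 71.8 and 92.5 TPM in weight-cycled libraries. The arrangement was that of Psma5, with replicates 2, 3 and 4 above all obese libraries and replicate 1 below them. The means were 63.1 ± 4.30 and 73.9 ± 15.1 TPM, and the fold change of 0.20 (SE 0.133) did not pass (limma adjusted p = 0.229).

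Psmb6 (chr11:70525367-70527858), with the caspase-like site, had 73.2, 73.9, 77.4 and 74.4 TPM in obese and 65.2, 74.5, 77.1 and 99.4 TPM in weight-cycled libraries. Its fold change was 0.06 (SE 0.117, limma adjusted p = 0.669), with weight-cycled replicates 1 and 4 on either side of the obese range. Psmb7 (chr2:38588036-38644087), with the trypsin-like site, had 39.9, 40.7, 37.6 and 37.5 TPM in obese and 35.4, 38.8, 38.3 and 43.3 TPM in weight-cycled libraries. Both groups averaged 38.9 TPM, and the fold change was -0.002 (SE 0.0876, limma adjusted p = 0.985). The 3 catalytic genes thus ran from 0.20 to near 0 with overlapping groups. After median-of-ratios scaling they were 0.53, 0.39 and 0.32, and after the length correction 0.34, 0.21 and 0.15.

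The beta subunits without an active site complete the inner rings. Psmb4, the most abundant member, had 79.8, 78.1, 83.5 and 82.5 TPM in obese and 71.4, 80.0, 87.1 and 109 TPM in weight-cycled libraries. Its fold change of 0.08 (SE 0.118, limma adjusted p = 0.571) came with weight-cycled libraries on both sides of the obese ones. Psmb2, the lowest core member by fold change, had 29.2, 26.5, 25.4 and 25.0 TPM in obese and 21.5, 21.4, 25.1 and 27.2 TPM in weight-cycled libraries. Its fold change was -0.16 (SE 0.102, limma adjusted p = 0.227), and replicates 1 and 2 of the weight-cycled group were the low ones. Psmb1 and Psmb3 had 0.05 and -0.11. Copies that are listed as pseudogenes of Psmb5, Psmb6 and Psmb7 held at most 0.295 TPM (Psmb7-ps2).

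The ATPases Psmc1 to Psmc6 form the ring of the regulatory base that unfolds substrates and opens the gate. All 6 were below 0, with a median of -0.21. Psmc5 (ENSMUSG00000020708.12, chr11:106256154-106263120) fell. It had 30.8, 27.2, 26.9 and 26.0 TPM in obese and 21.3, 20.2, 21.4 and 25.1 TPM in weight-cycled libraries, so that every weight-cycled library lay below every obese one. The means were 27.7 ± 2.14 and 22.0 ± 2.11 TPM, a fold change of -0.32 (SE 0.0960, limma adjusted p = 0.0406) and -0.06 relative to the median of all genes. After median-of-ratios scaling it was -0.003.

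Psmc1 and Psmc2 also had groups that did not overlap but missed the threshold. Psmc1 had 25.3, 24.3, 23.1 and 20.98 TPM in obese and 20.9, 17.6, 19.1 and 19.3 TPM in weight-cycled libraries (fold change -0.27, SE 0.0929, limma adjusted p = 0.0501). Psmc2 had 20.1, 20.9, 18.9 and 16.8 TPM against 16.7, 14.9, 14.6 and 16.4 TPM (-0.27, SE 0.0957, limma adjusted p = 0.0523). In both the gap between the lowest obese and the highest weight-cycled library was small. Psmc3, the highest ATPase gene by fold change, had 27.9, 26.7, 26.3 and 24.0 TPM in obese and 21.05, 25.9, 24.3 and 26.8 TPM in weight-cycled libraries. It was -0.10 (SE 0.0972, limma adjusted p = 0.420), with replicate 1 the lowest weight-cycled library, and became 0.22 after median-of-ratios scaling. Psmc6 and Psmc4 were at -0.14 and -0.12.

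The other 3 members of the base have no ATPase activity. Psmd1 and Psmd2 are its large scaffolds, on which ubiquitin receptors and the substrate-delivering shuttle proteins dock, and Psmd4 is itself a ubiquitin receptor. Psmd1 (ENSMUSG00000026229.17, chr1:86064387-86139151) fell. Its values were 14.9, 14.2, 13.7 and 13.2 TPM in obese and 11.8, 9.15, 10.3 and 11.4 TPM in weight-cycled libraries, with no overlap and with replicate 2 the lowest. The means were 14.0 ± 0.759 and 10.7 ± 1.19 TPM, a fold change of -0.37 (SE 0.0995, limma adjusted p = 0.0354), and after median-of-ratios scaling -0.06. Psmd2 had a fold change of -0.31 and did not pass (limma adjusted p = 0.0633). Psmd4 had 22.4, 22.3, 20.99 and 20.5 TPM in obese and 17.9, 18.1, 18.3 and 21.4 TPM in weight-cycled libraries. Weight-cycled replicates 1, 2 and 3 were close together below the obese range and replicate 4 lay within it, with a fold change of -0.18 (SE 0.0898, limma adjusted p = 0.119).

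The lid sits on the side of the base and holds the deubiquitinase Psmd14, which cuts ubiquitin chains from substrates as they enter, and its partner Psmd7. Of the 8 lid genes, Psmd3, a scaffold of the lid, was the only one to pass. Psmd3 (ENSMUSG00000017221.14, chr11:98682554-98695979) had 12.3, 11.6, 8.73 and 9.28 TPM in obese and 9.01, 6.67, 8.12 and 6.83 TPM in weight-cycled libraries. The groups overlapped, since weight-cycled replicate 1 exceeded obese replicate 3. The means were 10.5 ± 1.73 and 7.66 ± 1.11 TPM, a fold change of -0.40 (SE 0.131, limma adjusted p = 0.0454), the lowest of all members. It was below 0 in every alternative, -0.48 to -0.07, with -0.10 after median-of-ratios scaling.

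Other lid genes spread widely. Psmd13, a structural subunit and the highest regulatory member, had 17.1, 20.9, 20.95 and 18.5 TPM in obese and 17.04, 20.4, 21.2 and 24.7 TPM in weight-cycled libraries. Its fold change was 0.09 (SE 0.118, limma adjusted p = 0.519), with weight-cycled replicates 1 and 4 at the low and high end. Psmd14 was at 0.03, with 12.1, 12.4, 12.1 and 12.1 TPM in obese and 11.1, 11.7, 12.2 and 14.9 TPM in weight-cycled libraries. Psmd7 had a fold change of -0.24 with groups that did not overlap (limma adjusted p = 0.0724). The structural subunits Psmd12, Psmd11, Psmd6 and Psmd8 were at -0.31, -0.24, -0.08 and -0.07, and none of them passed. Groups without overlap were thus seen in 5 members, Psmc1, Psmc2, Psmc5, Psmd1 and Psmd7, all lower in weight-cycled libraries. They are 14.7% of tested members and 29.4% of regulatory ones, against 21.1% of all tested genes, and no member was without overlap and higher, against 1.3%.

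Psmd5, Psmd9 and Psmd10 encode chaperones that hold pairs of ATPases during assembly of the base. Psmd10 had 7.85, 7.31, 8.03 and 7.98 TPM in obese and 6.80, 8.16, 7.62 and 9.06 TPM in weight-cycled libraries, a fold change of 0.01 (SE 0.101, limma adjusted p = 0.917). Psmd9 had 3.04, 2.82, 2.68 and 2.63 TPM in obese and 2.02, 2.26, 3.22 and 2.39 TPM in weight-cycled libraries, a fold change of -0.14 (SE 0.120, limma adjusted p = 0.358), with replicate 3 above the obese range and the other weight-cycled libraries below it. Psmd5 was at -0.04. In all 3 the groups overlapped and none passed.

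The calls were few and rested on the libraries and the scaling. Psmd1, Psmc5 and Psmd3 each passed in 8 of 29 alternatives. No member passed when obese replicate 1, 2 or 3 or weight-cycled replicate 2, 3 or 4 was left out, where at most 49 of all tested genes were called lower, and none passed after the other scalings.

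**Figure D4:**
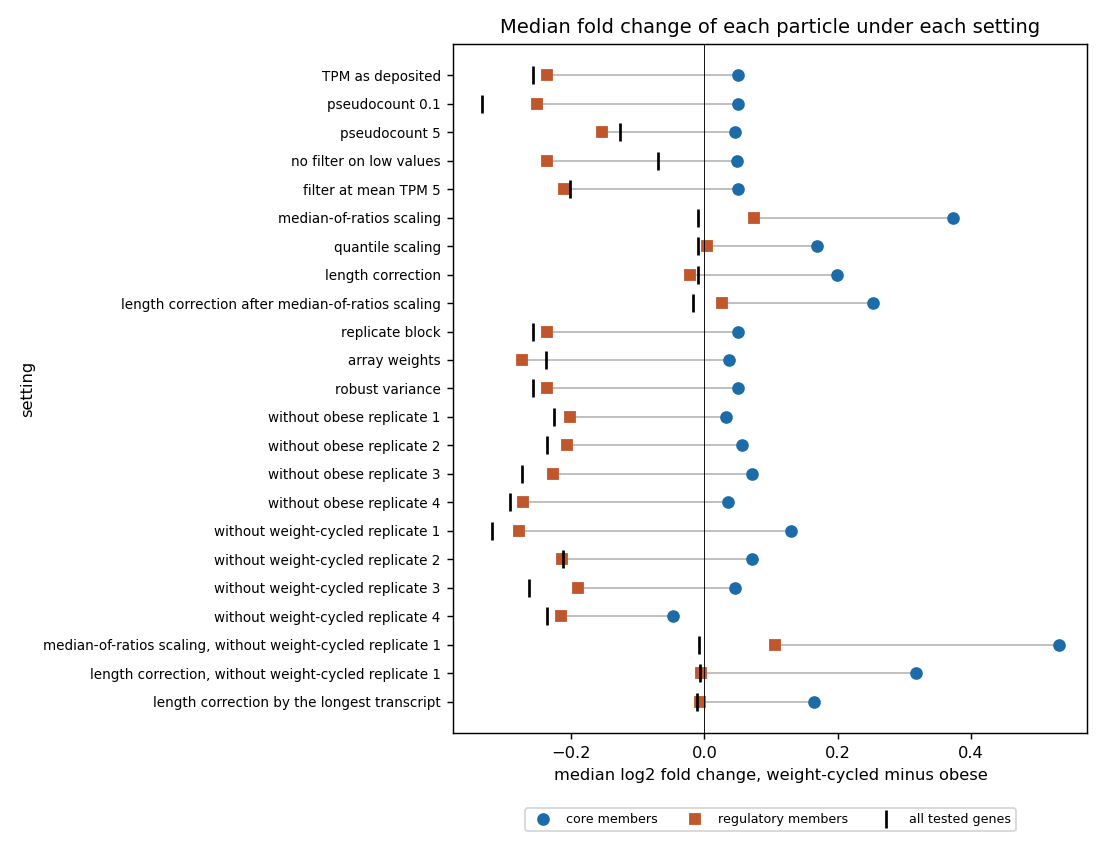
Median fold change (log2, weight-cycled minus obese) of the core members (blue circles), the regulatory members (orange squares) and all tested genes (black ticks) under each setting shown. The core median lies to the right of the regulatory median in every row, while both move against 0 with the scaling, from 0.05 and -0.24 in TPM as deposited to 0.37 and 0.07 after median-of-ratios scaling.

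Core genes also have shorter transcripts than regulatory genes. The median length was 975 bases for core and 1526 bases for regulatory members, taking for each gene the median over its protein-coding transcripts, and 1162.5 and 1819 bases by the longest transcript. Over all genes with a length, fold change and length had a Spearman correlation of -0.369 (n = 8123 genes of the same 8 libraries). From the shortest to the longest of 5 bins with about equal numbers of genes, the median fold change went from -0.14 through -0.16, -0.25 and -0.30 to -0.36. Among the 34 members the correlation was -0.261, within the core it was 0.055 (n = 14) and within the regulatory particle -0.226 (n = 17). By the longest transcript these were -0.412, 0.033 and -0.279. Psmd2 shows how much the choice of length matters, with a median transcript of 659 bases and a longest one of 2961. With either choice of length the core median remained above the regulatory one after correction, 0.20 against -0.02 by the median transcript and 0.16 against -0.01 by the longest.

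**Figure D5:**
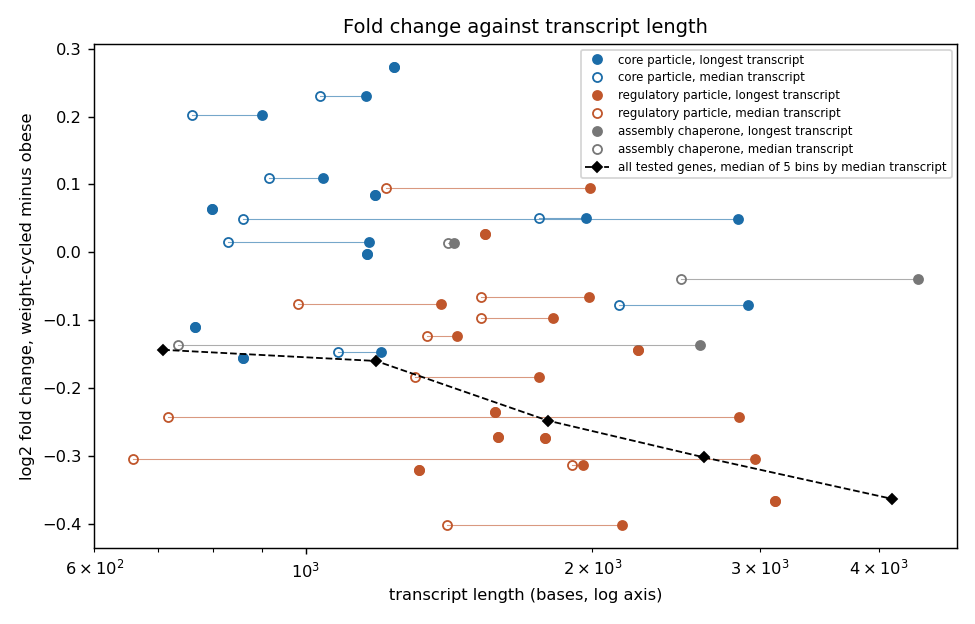
Fold change of each member (log2, weight-cycled minus obese) against transcript length on a log axis. Open circles use the median and filled circles the longest protein-coding transcript of a gene, joined by a line, and black diamonds give the median of all tested genes in 5 bins of length, falling from -0.14 to -0.36. Core members (blue) lie above -0.10 with the exception of Psma1, Psmb2 and Psmb3, and regulatory members (orange) extend to the lower right.

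A further 40 genes of the pathway were taken as a list, and 39 were measured. Of these 15 fell in weight-cycled islets (38.5%, against 23.9% of all tested genes), none rose and 24 did not pass, with a median of -0.33. The list was chosen with earlier results of these data known, so the 2 shares are given as a description only. After median-of-ratios scaling the median was -0.04 and none passed, and after the length correction it was -0.06 and 2 passed as lower, Psmb9 and Psme1. The remarks on libraries that stand apart hold here too: without weight-cycled replicate 1, 24 of 39 passed as lower and 2 as higher. In that setting 54.6% of all tested genes were called lower and 3.32% higher.

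Immunoproteasome subunits replace the catalytic ones when immune signals such as interferon are present. Psmb9, the counterpart of Psmb6, had 4.02, 3.53, 3.57 and 3.47 TPM in obese and 1.89, 2.46, 1.80 and 2.31 TPM in weight-cycled libraries, with no overlap and with replicate 1 among the low ones. It fell by 0.58 on the log2 scale (SE 0.109, limma adjusted p = 0.0247), and kept its sign in all 28 alternatives in which it was tested, passing in 12. Psmb10, the counterpart of Psmb7, was at -0.31 (limma adjusted p = 0.0538) and Psmb8, the counterpart of Psmb5, at -0.25 (limma adjusted p = 0.0994). Over the same libraries Psmb6 was at 0.06, Psmb7 at -0.002 and Psmb5 at 0.20. Immune cells express these inducible subunits, and the summed macrophage markers were lower in weight-cycled libraries as given above, as were the T and B cell markers (0.395 to 1.03 TPM, against 1.22 to 2.20). Their part in the values was not tested.

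Of the other activators and the inhibitor, 3 of 5 fell, where 23.9% of all tested genes were called lower. Psme1, a subunit of the cap that immune signals induce, had 18.3, 16.4, 18.2 and 15.4 TPM in obese and 13.7, 10.4, 11.3 and 12.1 TPM in weight-cycled libraries, with no overlap (-0.49, limma adjusted p = 0.0303). Psmf1, the inhibitor, was at -0.48 (limma adjusted p = 0.0345) and Psme3, subunit of a nuclear activator, at -0.46 (limma adjusted p = 0.0367). Among the chaperones that assemble the core, 1 of 5 fell, Psmg2. Pomp, which matures the beta ring, had 48.6, 47.4, 49.7 and 43.8 TPM in obese and 40.9, 42.6, 46.7 and 51.4 TPM in weight-cycled libraries, a fold change of -0.06 (limma adjusted p = 0.592).

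In a list of transcription factors and other regulators of proteasomes, 3 of 4 tested genes fell, namely Nfe2l1, Nfe2l2 and Akirin2. Of all tested genes 23.9% were called lower. Ddi2, also on this list, had a mean of 0.736 TPM, below the 1 TPM needed for the test. Nfe2l1 had 12.2, 12.9, 10.4 and 8.79 TPM in obese and 10.4, 5.65, 6.03 and 4.69 TPM in weight-cycled libraries. Weight-cycled replicates 2, 3 and 4 lay below all obese libraries and replicate 1 within their range. The means were 11.1 ± 1.86 and 6.69 ± 2.53 TPM, a fold change of -0.69 (SE 0.193, limma adjusted p = 0.0366), which was below 0 in all 29 alternatives and passed in 10. Nfe2l2, a related factor, was at -0.52 (limma adjusted p = 0.0345). After median-of-ratios scaling none of the 3 passed, with -0.40 for Nfe2l1, -0.28 for Nfe2l2 and -0.04 for Akirin2.

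Proteins that bring substrates to the proteasome fell in 4 of 9 cases, among them the shuttles Rad23b (-0.46, limma adjusted p = 0.0353), Ubqln2 (-0.65) and Ubqln1. Among 7 further subunits and bound proteins, 3 fell: Ecpas (-0.68), which tethers proteasomes, the ubiquitin ligase Ube3c (-0.51) and the deubiquitinase Usp14. None of the 6 genes for ubiquitin and its activating enzymes passed. These counts stand beside 23.9% of all tested genes called lower, and none of these genes passed after median-of-ratios scaling.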

How the data were processed

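The authors deposited TPM per gene for 8 libraries. The submitters' processing notes name Salmon 1.5.2 and the build mm10, while the annotation, and how transcripts were summed to genes, is not given in the sources used here. Columns summed to 999930 to 999949, and 0 columns lacked a sample. Symbols were matched for 35527 of 35596 gene IDs (99.8%), and coordinates and transcript lengths came from GENCODE M21 on GRCm38. Reads shared with near-identical copies are split by estimate.

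Genes with a mean of at least 1 TPM entered a linear model of log2(TPM + 1) over all 8 libraries, with no covariate. It was fitted in limma 3.58.1 (R 4.3.3), whose moderated two-sided test let the variance follow the mean, and p-values were adjusted by Benjamini-Hochberg at 0.05. The length correction removed, per library, a loess curve (span 0.5) of each gene's deviation on log length. The test was checked on simulated data in which few genes changed and the noise was independent between genes and libraries. Of changes of 0.5, 1 and 2 on the log2 scale it recovered 37.9%, 90.2% and 98.3% over 7989 genes, with 7 false calls. The real libraries share a component with 66.8% of the variance, so these rates need not hold for them.

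The members and lists were chosen with earlier results of these data known. Every member is named. Values per library are given for members past the threshold, the catalytic subunits and the highest and lowest fold change in each role, and for some others chosen after their values were seen (Psma7, Psmc1, Psmc2 and Psmd14). Related genes are named where past the threshold (the 10 smallest p, and the remaining 5 for completeness), with Psmb8, Psmb9, Psmb10, Nfe2l1 and Pomp always. A gene that this rule takes is not reported here. Alternatives were other pseudocounts, filters, scalings and variance models, the length correction, a replicate block and leaving out each library.

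Obese and weight-cycled libraries share replicate numbers. Deviations of same-numbered libraries from their group means correlated at 0.21, -0.276, -0.0522 and 0.231, so the numbers were not taken to pair them.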

Additional observations from a re-analysis of the deposited data

Results flagged for a closer look

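Groups of 4 libraries were examined for the 34 tested members, the 18 related genes named in the text or by its rule, and the 3 summaries of the particles (the core mean, the regulatory mean and their difference), each in both diet groups. Of these 110 groups, 6 held a library that stood apart from the other 3 by Dixon's criterion, where chance gives about 5.5. Among members, Psmd4, the ubiquitin receptor of the base, stood at 21.4 TPM in weight-cycled replicate 4, while its other weight-cycled libraries held 17.9 to 18.3. Psmd11, a lid subunit, had 5.71 TPM in weight-cycled replicate 1, against 3.91 to 4.16. The lid deubiquitinase Psmd14 had 12.4 TPM in obese replicate 2, against a range in the other obese libraries that rounds to 12.1.

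Among related genes, the immunoproteasome subunit Psmb10 had 11.9 TPM in obese replicate 4, against 9.49 to 9.81 in the others. Ecpas had 3.16 TPM in weight-cycled replicate 1, against 1.30 to 1.598, and Akirin2 had 9.99 TPM in obese replicate 1, against 7.97 to 8.10.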

How the results depend on the processing

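Settings without an adjusted p under 0.05 for any member were no filter on low values, median-of-ratios and quantile scaling, and the length corrections with all libraries, each with 0 members lower and 0 higher. The members called lower were 3 with a pseudocount of 0.1, 5 with a pseudocount of 5, a filter at 5 TPM or robust variance, and 12 with array weights, which also called 1 higher. All tested genes called lower numbered 1946, and 0 with no filter (5283 at an unadjusted p under 0.05), 1001 with the filter at 5 TPM, 46 and 124 with median-of-ratios and quantile scaling, 123, 61 and 162 with the length correction, that correction after median-of-ratios scaling and by the longest transcript, and 4499 with array weights. Genes called higher numbered 98, and 0, 79, 101, 173, 142, 106, 180 and 296 in the same order. Related genes called lower numbered 15, and 0, 12, 0, 1, 2, 1, 2 and 25, with 2 higher under array weights. The core median (0.05) was 0.37 with median-of-ratios scaling, 0.17 with quantile scaling and 0.20, 0.25 and 0.16 with the length corrections, and the regulatory median (-0.24) was 0.074, 0.004, -0.022, 0.027 and -0.0059. The cause was not tested. Of 34 members, 18 had the other sign with median-of-ratios scaling, 14 with quantile scaling and 10 with the length correction.

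With 1 library left out (some of these with scaling, chosen after seeing the data, as were the correction by the longest transcript and the length correction with weight-cycled replicate 1 left out), members called lower ranged from 0 to 9 and higher from 0 to 19, all genes lower from 0 to 4441 and higher from 0 to 1621 (270 in TPM as deposited), and related genes lower from 0 to 24 and higher from 0 to 8. With median-of-ratios scaling and weight-cycled replicate 1 left out, 1451 of all genes were lower, and 7 related genes were lower. The length correction without that library called 13 members higher, and 1086 of all genes lower and 1033 higher. The core median ranged from -0.05 to 0.53, the regulatory median from -0.28 to 0.13 and their difference from 0.17 to 0.43. With median-of-ratios scaling and obese replicates 1 to 4 left out in turn, the core median was 0.315, 0.357, 0.415 and 0.405, and the regulatory median 0.068, 0.056, 0.102 and 0.082. With weight-cycled replicates 1 to 4 left out they were 0.532, 0.338, 0.375 and 0.252 for the core and 0.106, 0.035, 0.131 and 0.062 for the regulatory particle, with all genes called higher numbering 11, 13 and 59 without obese replicate 2 and weight-cycled replicates 2 and 3. The length correction without weight-cycled replicate 1 gave 0.318 and -0.0044. The low counts came with obese replicate 1 left out (0 lower and 0 higher of all genes, 2558 and 156 at an unadjusted p under 0.05) and the high ones with weight-cycled replicate 1 left out.

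Values that passed in TPM as deposited with all libraries, and changed sign under an alternative in which they did not pass, were those of Psmc5, Psmd1, Psmg2 and Usp14. The other genes below had not passed there and passed with the other sign. With median-of-ratios scaling and weight-cycled replicate 1 left out, values were 0.37 for Psmc3, 0.34 for Psma2, 0.34 for Psmd6, 0.44 for Psmb7, 0.28 for Psmb2, 0.33 for Psmd8, 0.27 for Psma1, 0.39 for Pomp, 0.086 for Psmc5 and 0.038 for Psmg2. With the length correction and the same library left out they were 0.22 for Psmc3, 0.28 for Psma2, 0.22 for Psmb7, 0.24 for Pomp and 0.033 for Usp14. Psmc5 was also at 0.0098, 0.0037, 0.014 and 0.018 with that scaling and obese replicate 1, 3 or 4 or weight-cycled replicate 3 left out, and Psmg2 at 0.0048 and 0.0002 without obese replicate 3 and weight-cycled replicate 4. The length correction after median-of-ratios scaling gave 0.013 for Psmd1 and 0.024 for Usp14, and that by the longest transcript 0.0026 for Usp14.

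With the replicate number as a block, 3 members were called lower and 0 higher, as without it, and 2754 of all genes lower and 149 higher. Same-numbered libraries did not all correlate best with each other, so this pairing comes from the numbers alone. TPM keep no depth, so no floor of detection can be given. Changes of 0.5 on the log2 scale were recovered in 37.9% of cases simulated with independent noise, so a change of the size seen in Psma5 can be missed.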
